A study of Mus musculus with 30 samples.

Results

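The 9 genes described here encode the calcium pumps of the sarcoplasmic reticulum (*Atp2a1*, *Atp2a2*, *Atp2a3*), 2 small membrane proteins that bind those pumps (*Sln*, *Pln*), 3 calcium-binding proteins of the reticulum lumen (*Casq1*, *Casq2*, *Hrc*) and a cytosolic calcium buffer (*Pvalb*). They were taken by symbol from the 36103 genes of the deposited count table, and all 9 were found. The table comes from RNA-seq of whole gastrocnemius, diaphragm, heart and liver of male *Mtm1*-/y mice (labelled Mtm1KO), which carry a knockout of the gene for the phosphoinositide phosphatase myotubularin, and of their WT littermates. All mice were 5 weeks old and on the 129Pas background. The muscles gave 23 of the 30 libraries, with 4 WT and 4 *Mtm1*-/y libraries each for gastrocnemius and heart and 4 WT and 3 *Mtm1*-/y libraries for diaphragm. The liver had 3 WT and 4 *Mtm1*-/y libraries. The labels number the libraries but do not name the animals, so p-values measure the spread between libraries.

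In a striated muscle fibre, calcium released from the sarcoplasmic reticulum triggers contraction, and SERCA pumps return it to the lumen so that the fibre relaxes. SERCA1 (*Atp2a1*) is the pump of fast fibres, SERCA2 (*Atp2a2*) that of slow fibres and cardiomyocytes, and SERCA3 (*Atp2a3*) is found mainly in non-muscle cells. Sarcolipin and phospholamban lower pump activity, calsequestrins hold calcium near the release channel, and parvalbumin speeds relaxation of fast fibres.

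The coding sequences of the 2 pump regulators are given because they are short enough to be shown whole and because *Sln* had the largest genotype difference of the 9 genes. They are GENCODE M21 reference sequences on mm10, not read from these libraries, with the start and stop codons in capitals. That of *Sln* lies in 1 of 2 exons (chr9:53853473-53853568, plus strand) and has 31 codons before the stop, and that of *Pln* lies in 1 of 2 exons (chr10:53343864-53344022, plus strand) and has 52.
*Sln*: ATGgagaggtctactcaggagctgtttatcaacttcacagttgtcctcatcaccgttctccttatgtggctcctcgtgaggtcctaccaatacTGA
*Pln*: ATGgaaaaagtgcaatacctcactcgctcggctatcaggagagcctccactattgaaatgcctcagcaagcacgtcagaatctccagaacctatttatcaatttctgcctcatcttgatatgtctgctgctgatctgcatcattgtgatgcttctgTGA

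Libraries held 24873817 to 44289343 counts. Levels are CPM, the count of a gene relative to the total of its library after TMM scaling within a tissue. Values after ± are SDs. A gene passed where its adjusted p from edgeR's quasi-likelihood test was under 0.05. The SE of a log2 difference in edgeR was derived as its absolute value divided by the square root of the test's F statistic. *Mtm1* itself stood at 3.98 to 5.33 CPM in the *Mtm1*-/y muscle libraries and at 18.7 to 31.7 CPM in the WT ones. Some libraries stood apart. Genes enriched in the liver took 1.60% to 19.6% of the counts of a diaphragm library, with 11.4% or more in WT replicates 1, 2 and 4 and in *Mtm1*-/y replicate 2, and at most 2.21% in any gastrocnemius or heart library. Summed fast fibre markers ran from 89571 to 171935 CPM in the gastrocnemius, 37875 to 60222 CPM in the diaphragm and 35.6 to 80.3 CPM in the heart. The summed level of 8 atrial markers was 32116 CPM in WT heart 4 and 853 to 4621 CPM in the other WT hearts, and was 6014 CPM in *Mtm1*-/y heart 2 and 241 to 721 CPM in the other *Mtm1*-/y hearts.

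The first question was how the WT muscles differ in these genes. *Atp2a1* and *Casq1* were the leading pump and calsequestrin of both skeletal muscles, and *Atp2a2* and *Casq2* those of the heart. To compare genes with each other, CPM was divided by summed exon length and put on a scale shared by the WT muscle libraries (CPM per kb, n = 4 per muscle). In the gastrocnemius *Pvalb* (16664 ± 2323) and *Atp2a1* (14097 ± 1359) led. Their ranges over libraries overlapped, but within each library *Pvalb* was the higher. *Casq1* (3924 ± 349), *Hrc* (539 ± 14.4) and *Atp2a2* (143 ± 49.4) followed, and *Casq2*, *Sln*, *Atp2a3* and *Pln* were between 0.946 and 17.3 on average. In the diaphragm *Atp2a1* led (3736 ± 834), followed by *Pvalb* (1282 ± 452) and *Casq1* (719 ± 157). *Hrc* (260 ± 56.3), *Sln* (247 ± 41.4) and *Atp2a2* (205 ± 44.4) came next there, with ranges that overlapped. Within each diaphragm library *Hrc* and *Sln* were both above *Atp2a2*, while the order of *Hrc* and *Sln* varied. Differences between genes were not tested. In the heart *Atp2a2* (2312 ± 208) and *Pln* (2149 ± 714) led with overlapping ranges, ahead of *Hrc* (382 ± 46.9) and *Casq2* (348 ± 68.4), which also overlapped. *Sln* in WT heart averaged 278 CPM per kb but ran from 7.44 to 821 between libraries. *Pvalb* (0.448 ± 0.244) and *Atp2a1* (mean 1.36, from 0.422 to 3.60) had the lowest means of the 9 in the heart.

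Tested across all genes in 1 edgeR fit of the WT muscles, 8 of the 9 genes differed between heart and gastrocnemius, where 64.2% of all genes tested passed. *Atp2a3* was the exception (log2 difference -0.30, SE 0.15, adjusted p = 0.10). Relative to the gastrocnemius, *Pln* was higher in the heart by 11.15 (SE 0.47), *Sln* by 4.65 (SE 1.03), *Casq2* by 4.33 (SE 0.23) and *Atp2a2* by 4.02 (SE 0.29) on the log2 scale. The *Sln* difference was 3.13 without WT heart 4 and still passed. *Sln* in WT heart 2 (7.44 CPM per kb) nevertheless lay within its WT gastrocnemius range of 4.16 to 16.0. *Pvalb* (-15.16, SE 0.53) and *Atp2a1* (-13.34, SE 0.90) were lower, with 8 to 30 and 53 to 454 counts per WT heart library. Between heart and diaphragm 8 of the 9 passed, where 51.1% of all genes did, and *Sln* did not (0.17, SE 0.88). Between diaphragm and gastrocnemius 6 of the 9 passed, where 54.8% of all genes did. *Sln* (4.48, SE 1.02) and *Casq2* (2.49, SE 0.21) were higher in the diaphragm. *Pvalb* (-3.70, SE 0.33), *Casq1* (-2.45, SE 0.25), *Atp2a1* (-1.92, SE 0.56) and *Hrc* (-1.05, SE 0.15) were lower there. *Atp2a2*, *Atp2a3* and *Pln* did not pass between the 2 skeletal muscles.

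**Figure D1:**
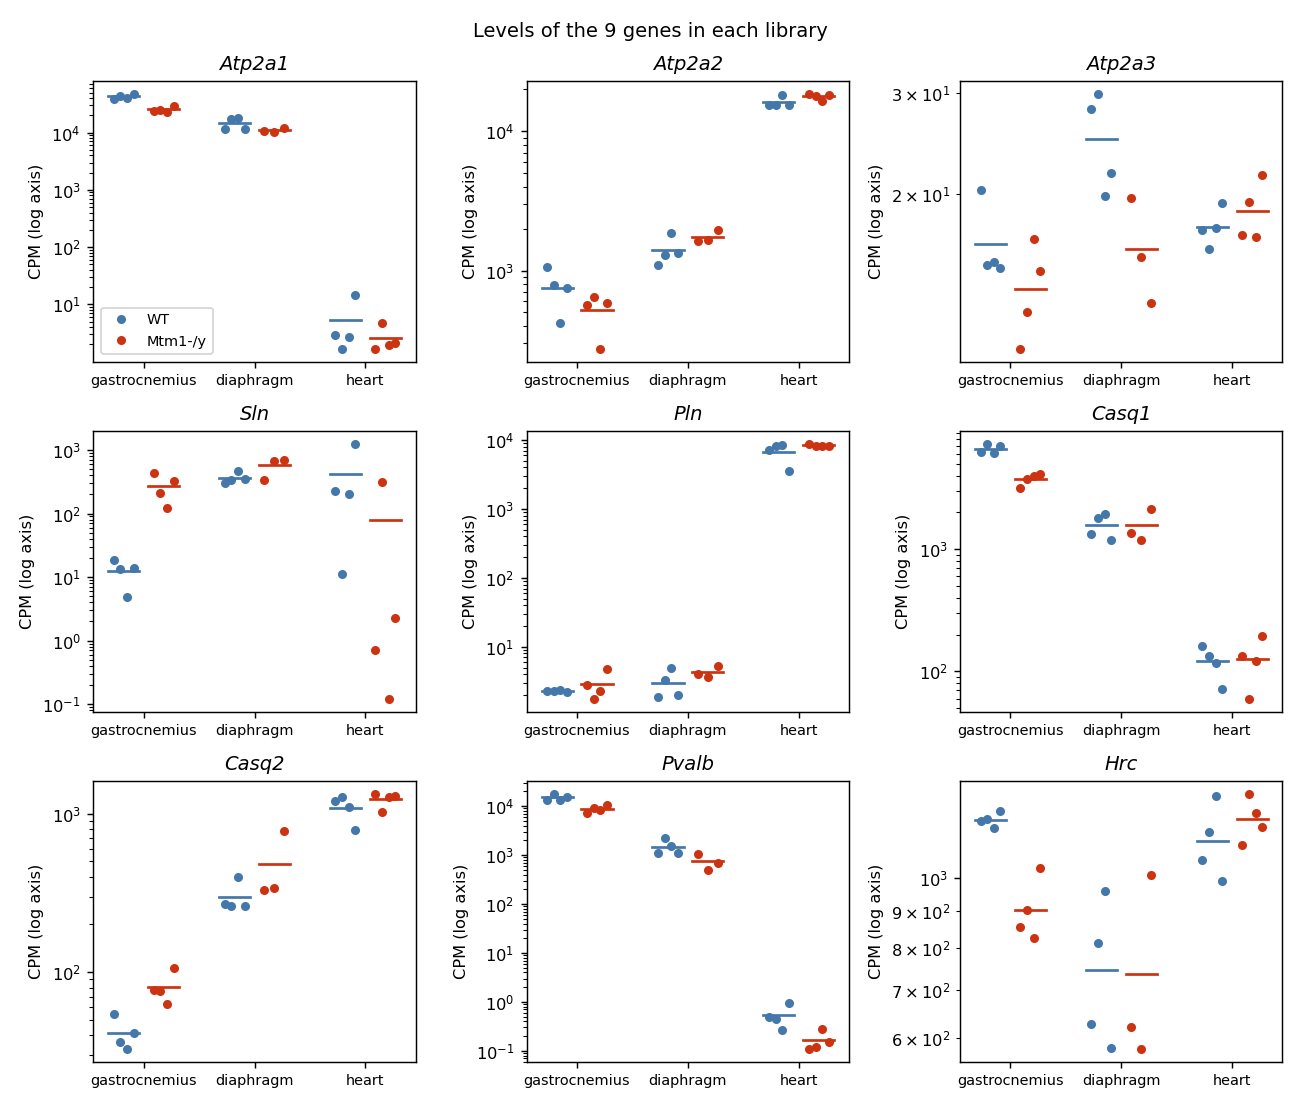
Level of each of the 9 genes in every muscle library (points, CPM on a log axis) with the group mean (line), for WT and *Mtm1*-/y gastrocnemius, diaphragm and heart. In the gastrocnemius the genotypes do not overlap for 6 genes, whereas in the heart they overlap for all 9.

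In the gastrocnemius 6 of the 9 genes passed between *Mtm1*-/y and WT, against 29.0% of the 15456 genes tested: *Sln* and *Casq2* rose, and *Atp2a1*, *Casq1*, *Pvalb* and *Hrc* fell. The genotypes did not overlap for the same 6 genes, against 30.7% of all genes tested. The median log2 fold change of the 9 was -0.41, beside 0.02 over all genes. In whole tissue, fewer fibres of a kind and less RNA per fibre cannot be told apart.

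Among the pumps, *Atp2a1* (chr7:126445858-126463108, minus strand) fell. It stood at 38993, 43909, 40143 and 47493 CPM in WT replicates 1 to 4 and at 23952, 25161, 23003 and 29427 CPM in *Mtm1*-/y. Every *Mtm1*-/y library was thus below every WT library, and the log2 fold change was -0.75 (SE 0.12, edgeR adjusted p = 0.0014). *Atp2a2* (chr5:122453513-122502225, minus strand) was 1061, 787, 420 and 752 CPM in WT, against 564, 648, 274 and 583 CPM in *Mtm1*-/y. Replicate 3 of each genotype was the lowest of its group, the groups overlapped, and the gene did not pass (-0.55, SE 0.30, adjusted p = 0.20). Those 2 libraries also had the lowest summed level of 10 slow fibre markers in their groups (1646 CPM for WT and 1610 CPM for *Mtm1*-/y, with 3004 to 4979 CPM in the other gastrocnemius libraries), and the part of fibre composition in *Atp2a2* was not tested. *Atp2a3* (chr11:72961169-72993044, plus strand) was between 10.8 and 20.3 CPM in all 8 libraries and did not pass (-0.26, SE 0.15).

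Of the 2 regulators *Sln* passed and *Pln* did not. *Sln* (chr9:53850164-53854560, plus strand), the regulator of skeletal and atrial muscle, was 18.5, 13.3, 4.79 and 14.1 CPM in WT, against 428, 207, 122 and 327 CPM in *Mtm1*-/y. The lowest *Mtm1*-/y library was above the highest WT library (log2 fold change 4.42, SE 0.48, adjusted p = 0.00032). *Pln* (chr10:53337667-53345987, plus strand), the regulator of ventricular and slow muscle, was 2.19 to 2.37 CPM in WT, against 1.75 to 4.71 CPM in *Mtm1*-/y, on 58 to 175 counts per library. It did not pass (0.35, SE 0.27, adjusted p = 0.36).

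The calsequestrins moved in opposite directions. *Casq1* (chr1:172209894-172219868, minus strand), the main skeletal muscle form, was 6240, 7262, 6130.3 and 7003 CPM in WT, against 3165, 3777, 3982 and 4107 CPM in *Mtm1*-/y, and it fell (-0.83, SE 0.11, adjusted p = 0.00061). *Casq2* (chr3:102086415-102146514, plus strand), the cardiac and slow fibre form, was 54.4, 36.2, 32.7 and 41.3 CPM in WT, against 76.9, 76.6, 63.2 and 106 CPM in *Mtm1*-/y, and it rose (0.97, SE 0.18, adjusted p = 0.0039). Neither pair of groups overlapped. *Hrc* (chr7:45335290-45338974, plus strand), a histidine-rich calcium-binding protein of the lumen, was 1174 to 1236 CPM in WT, against 825 to 1032 CPM in *Mtm1*-/y. It fell with the smallest change of the 6 (-0.41, SE 0.082, adjusted p = 0.0050). *Pvalb* (chr15:78191114-78206400, minus strand) was 13361, 17728, 13605 and 15659 CPM in WT, against 7423, 9128, 8520.0 and 10608 CPM in *Mtm1*-/y. It fell by 0.76 on the log2 scale (SE 0.14, adjusted p = 0.0029), again with no overlap.

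DESeq2 passed the same 6 genes, where 4846 of 18716 genes passed in all. So did each edgeR fit that left out 1 gastrocnemius library, where 3324 to 4280 genes passed in all. In 1 edgeR fit of all 30 libraries *Sln* alone passed (adjusted p = 0.047), with 0.055 for *Casq2* and 0.28 to 0.42 for the other 4. In that fit 2925 of 18498 genes passed in the gastrocnemius.

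Markers of fibre type and of other cells moved in the same muscle. Of 10 fast fibre markers 8 fell, the most abundant being *Myh4*, with means of 56161 CPM in WT, against 28038 CPM in *Mtm1*-/y, and *Tnnt3*, with 26526 and 15367 CPM. 2 rose, *Myh1* (1.08) and *Myh2* (0.93). Their summed level was 142574 to 171935 CPM in WT, against 89571 to 104752 CPM in *Mtm1*-/y. Relative to that sum, *Atp2a1* was 27.4% ± 1.53 in WT and 26.4% ± 2.14 in *Mtm1*-/y, and *Pvalb* was 9.67% ± 0.451 and 9.24% ± 0.920 (SD, n = 4 each), with overlap in both cases. *Casq1* was 4.28% ± 0.0803 and 3.90% ± 0.252 of the sum, without overlap, and *Hrc* was 0.777% ± 0.0602 and 0.939% ± 0.0712, higher in *Mtm1*-/y on average but with overlap. *Casq2* (0.0268% ± 0.00780 and 0.0836% ± 0.0154) and *Sln* (0.00817% ± 0.00397 and 0.285% ± 0.150) did not overlap. These ratios were chosen after the data were seen and are descriptions.

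Of 10 slow fibre markers *Ankrd2* rose and *Myl3* fell, with summed levels of 1646 to 4979 CPM in WT, against 1610 to 3663 CPM in *Mtm1*-/y. The atrial and ventricular lists were made for the heart and do not mark such cells in the gastrocnemius. There *Myl4* rose among 4 atrial markers tested (sums 40.3 to 47.5 and 51.3 to 63.2 CPM). *Myl3*, which also stands in the slow fibre list, fell among 4 ventricular markers (413 to 1098 and 366 to 703 CPM). 9 of 10 macrophage markers rose (sums 57.4 to 102 and 170 to 206 CPM), *Lyz2* (1.87) and *Csf1r* (1.06) among them. 7 of 10 white adipocyte markers rose, *Fabp4* among them, and none fell, with a median log2 fold change of 1.30 over the 10. The most abundant, *Car3*, did not pass (-0.36, SE 0.13), and the sums overlapped (3048 to 4300 and 2649 to 3470 CPM). These sums were mostly *Car3*, whose group means were 3314 and 2588 CPM in the same order, and they say little about the other markers. Of 11 hepatocyte markers tested *Cyp2e1* rose and *Ahsg* fell, and *Alb* did not pass (sums 62.5 to 138 and 37.0 to 119 CPM). The part of fibre type, macrophages, adipocytes and hepatocytes in the 9 genes was not tested.

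**Figure D2:**
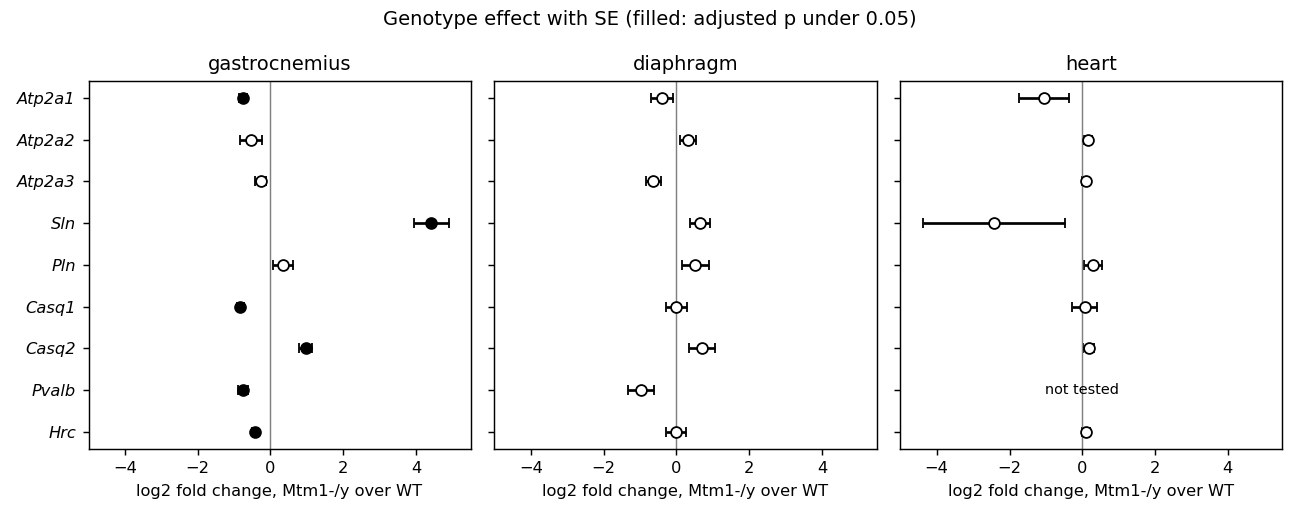
Log2 fold change of each gene between *Mtm1*-/y and WT in 3 muscles. Bars are the SE derived from the F statistic, and points are filled where the adjusted p was under 0.05. *Sln* in the gastrocnemius (4.42) lies farthest from 0, and no point is filled in the diaphragm or the heart.

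Other genes of calcium handling in the gastrocnemius were read from 4 lists, beside all genes tested, of which 14.1% rose and 14.9% fell. Of 18 tested genes of the calcium store and SERCA regulation 9 fell and 2 rose (*Camk2d* and *Calu*), with a median log2 fold change of -0.17 beside 0.02 over all genes. Those with the smallest p were *Camk2a* (-0.84, SE 0.078) and *Camk2g* (-0.52, SE 0.073), subunits of a calcium-dependent kinase that phosphorylates phospholamban, and *Ppp1r1a* (-1.57, SE 0.20), an inhibitor of protein phosphatase 1. *Mrln*, which encodes myoregulin, a further SERCA-binding micropeptide, fell by 0.50 on the log2 scale (63.8 CPM in WT, against 45.2 CPM in *Mtm1*-/y) and is named here after its value was seen, as are genes below that are named because 5 or fewer of a list moved that way. Of 20 tested genes of calcium release and store-operated entry 11 fell and 1 rose (*Cacng1*), with a median of -0.42. The junctophilins *Jph2* (-0.79, SE 0.081) and *Jph1* (-0.69, SE 0.090), which tie the reticulum to the surface membrane, and the channel adaptor *Stac3* (-0.42, SE 0.060) had the smallest p of this list.

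Of 16 genes of surface membrane and mitochondrial calcium transport 5 rose, *Slc8b1* among them, and 2 fell (*Micu3*, *Atp2b3*), with a median of 0.02. *Micu3* (-0.65, SE 0.097), *Slc8b1*, a mitochondrial sodium/calcium exchanger (0.62, SE 0.11), and *Atp2b3*, a surface calcium pump (-0.63, SE 0.11), had the smallest p. Of 16 calcineurin and calmodulin genes 9 fell and none rose in edgeR or DESeq2 (3 were higher at an unadjusted p under 0.05 in edgeR), with a median of -0.32. The lowest p were those of *Calm3* (-0.93, SE 0.070), *Ppp3cb* (-0.69, SE 0.073) and *Calm2* (-0.66, SE 0.077). In edgeR no gene of these 4 lists passed in the diaphragm or the heart, where medians lay between -0.02 and 0.22. At an unadjusted p under 0.05 there were 7 of 72 genes in the diaphragm, beside 10.8% of all genes tested, and 10 of 69 in the heart, beside 8.88%. DESeq2 passed 3 in the diaphragm (*Camk2d*, *Ppp1r1a* and *Rcan1*), where 2.39% of all genes passed, and 2 in the heart (*Nnat* and *Ryr3*), where 0.461% did.

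In the diaphragm none of the 9 genes passed in edgeR, where 0.0119% of the genes tested did (2 of 16796), and none in DESeq2, where 2.39% did. The count over all genes moved with the libraries: without *Mtm1*-/y diaphragm 2 it was 162 of 17291 in edgeR and 1661 of 17614 in DESeq2, and none of the 9 passed there either. At an unadjusted p under 0.05 edgeR gave 2 of the 9, *Atp2a3* and *Pvalb*, beside 10.8% of all genes. These were also the 2 whose genotypes did not overlap, against 9.97% of all genes. In DESeq2 *Pvalb* (0.0067), *Atp2a3* (0.01), *Sln* (0.021) and *Casq2* (0.038) had an unadjusted p under 0.05, as did 2207 genes in all. *Pvalb* was 1088, 2206, 1548 and 1121 CPM in WT, against 1072, 496 and 705 CPM in *Mtm1*-/y replicates 1, 2 and 4 (log2 fold change -0.98, SE 0.36, adjusted p = 0.41). *Atp2a3* was 28.2, 29.9, 19.8 and 21.8 CPM in WT, against 19.7, 15.6 and 12.9 CPM in *Mtm1*-/y (-0.63, SE 0.21, adjusted p = 0.36). For both genes the highest *Mtm1*-/y library lay just under the lowest WT library.

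*Sln* was 303, 341, 464 and 353 CPM in WT diaphragm and 339, 667 and 706 CPM in *Mtm1*-/y, so that *Mtm1*-/y replicate 1 lay among the WT libraries (0.64, SE 0.28, adjusted p = 0.48). *Casq2* was 268, 262, 399 and 261 CPM in WT, against 329, 341 and 783 CPM in *Mtm1*-/y (0.70, SE 0.35), and the log2 fold change was 0.18 without *Mtm1*-/y replicate 4, the highest library. *Atp2a1* (-0.40, SE 0.29), *Atp2a2* (0.32, SE 0.22), *Pln* (0.51, SE 0.37), *Casq1* (-0.0027, SE 0.28) and *Hrc* (-0.016, SE 0.27) overlapped too. Summed hepatocyte markers ran from 652 to 44052 CPM in WT, against 1029 to 57609 CPM in *Mtm1*-/y diaphragm. Without the 992 liver-enriched genes the values were -0.97 for *Pvalb*, -0.63 for *Atp2a3* and 0.65 for *Sln*, and no gene of the 9 passed. Relative to summed fast fibre markers, *Atp2a1* was 30.3% ± 0.636 in WT (n = 4) and 23.4% ± 2.86 in *Mtm1*-/y diaphragm (n = 3), and *Pvalb* was 3.07% ± 0.580 and 1.58% ± 0.530, both without overlap. On the same scale *Casq1* (3.27% ± 0.160 and 3.24% ± 0.571), *Hrc* (1.56% ± 0.0905 and 1.53% ± 0.277), *Casq2* (0.631% ± 0.112 and 0.987% ± 0.383) and *Sln* (0.776% ± 0.135 and 1.23% ± 0.512) overlapped.

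In the heart none of the 8 genes tested passed in edgeR, where 0.00656% of the genes tested did (1 of 15238, *Mtm1* itself), and none of the 9 in DESeq2, where 0.461% did. None had an unadjusted p under 0.05 in edgeR, where 8.88% of all genes did, and none separated the genotypes, against 4.26% of all genes tested. *Atp2a2* was 15384 to 18227 CPM in WT, against 16583 to 18597 CPM in *Mtm1*-/y (0.15, SE 0.11). *Pln* was 7076, 8087, 8489 and 3551 CPM in WT, against 8768, 8245, 8232 and 8235 CPM in *Mtm1*-/y (0.30, SE 0.24), with WT replicate 4 far below the rest. *Casq2* (0.17, SE 0.16), *Hrc* (0.098, SE 0.11), *Casq1* (0.072, SE 0.34), *Atp2a3* (0.092, SE 0.10) and *Atp2a1* (-1.05, SE 0.68) overlapped between genotypes as well. *Pvalb* had 8 to 30 counts in WT and 3 to 7 counts in *Mtm1*-/y hearts and was below the filter on low counts. In DESeq2 its log2 fold change was -1.70, with an unadjusted p of 0.0065 and an adjusted p of 0.30.

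*Sln* in the heart was 225, 11.2, 200.9 and 1244 CPM in WT, against 0.724, 311, 0.121 and 2.26 CPM in *Mtm1*-/y. The high *Mtm1*-/y value belonged to replicate 2, the highest of its group in atrial markers, and the high WT value to replicate 4, the highest of all. *Sln* amounted to 5.61%, 1.32%, 4.35% and 3.87% of the atrial sum in WT and to 0.301%, 5.17%, 0.0168% and 0.884% in *Mtm1*-/y. The log2 fold change was -2.42 (SE 1.95, adjusted p = 0.62). With WT heart 4 and *Mtm1*-/y heart 2 left out it was -7.11 (SE 1.24), with adjusted p = 0.12 in edgeR and 0.00013 in DESeq2, where 422 of 16320 genes passed and the range over 15 alternatives was 0.00013 to 0.94. The atrial sum of the hearts that remained was 853 to 4621 CPM in WT, against 241 to 721 CPM in *Mtm1*-/y, and the part of atrial tissue in *Sln* was not tested. The ventricular sum was 3837 CPM in WT heart 4 and 10090.5 to 12572 CPM in the other 7.

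**Figure D3:**
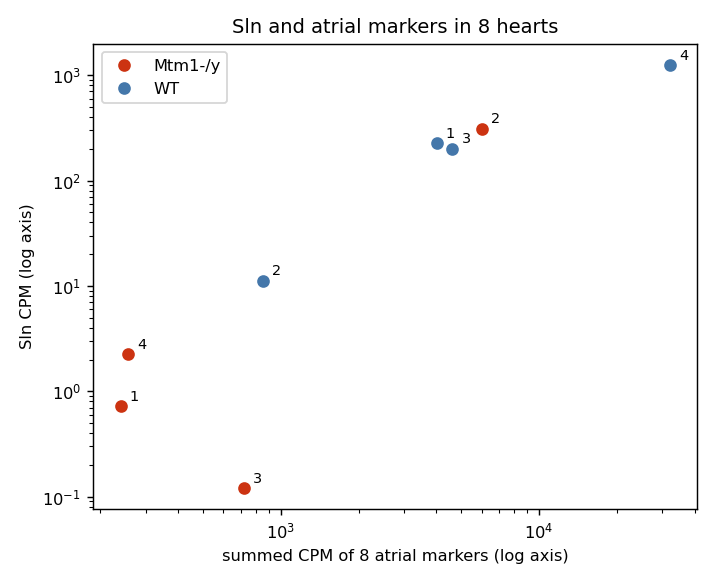
*Sln* level (CPM, log axis) against the summed level of 8 atrial markers (CPM, log axis) in the 4 WT and 4 *Mtm1*-/y hearts, numbered by replicate. The 3 hearts with the lowest *Sln* (0.121 to 2.26 CPM) are *Mtm1*-/y and have atrial sums of 241 to 721 CPM.

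In the liver *Atp2a2* was the main member at 277 ± 78.5 CPM in WT (n = 3) and 232 ± 51.6 CPM in *Mtm1*-/y (n = 4), and no other of the 9 exceeded 14.2 CPM in any library. None of the 7 genes tested there passed in edgeR, where 0% of 14305 genes did. 2 had an unadjusted p under 0.05 in edgeR (*Pln* and *Casq2*, at 0 to 28 counts per library) beside 4.24% of all genes. None of the 9 passed in DESeq2, where 25 of 16732 genes did. *Mtm1* itself did not pass in edgeR there (log2 fold change -1.60, adjusted p = 0.37). It was 3.37 to 6.39 CPM in *Mtm1*-/y liver, against 12.5 to 19.0 CPM in WT.

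Ratios within a library ask how the isoforms are balanced, and no scaling between libraries enters them. They were computed from counts per exon length and compared by exact two-sided permutation tests over libraries, adjusted over 9 tests. In the gastrocnemius *Atp2a2* made up 1.01% ± 0.391 of SERCA transcripts in WT and 1.14% ± 0.340 in *Mtm1*-/y (exact p = 0.571). In the diaphragm the share was 5.05%, 4.07%, 5.70% and 6.22% in WT and 7.97%, 8.30% and 8.52% in *Mtm1*-/y. The groups did not overlap there, and the exact p of 0.0571 is the smallest that 4 against 3 libraries allow. In the heart it was 99.8% ± 0.0802 and 99.9% ± 0.0212 (exact p = 0.514).

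*Casq2* made up 0.618%, 0.355%, 0.379% and 0.418% of calsequestrin transcripts in WT gastrocnemius and 1.70%, 1.43%, 1.12% and 1.81% in *Mtm1*-/y (exact p = 0.0286, the smallest that 4 against 4 allow). In the diaphragm it was 12.5%, 9.36%, 12.8% and 13.5% in WT and 14.7%, 16.98% and 20.6% in *Mtm1*-/y (exact p = 0.0571). In the heart it was 86.8% ± 1.83 and 87.7% ± 4.08 (exact p = 0.714). In both skeletal muscles each *Mtm1*-/y library had a higher *Casq2* share than each WT library, and in the heart the groups overlapped.

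*Sln* and *Pln* together came to 0.0845 ± 0.0374 per 100 SERCA transcripts in WT gastrocnemius and 2.79 ± 1.40 in *Mtm1*-/y, with no overlap (exact p = 0.0286). In the diaphragm they came to 6.49, 5.01, 6.56 and 7.62 in WT and 7.69, 15.5 and 14.3 in *Mtm1*-/y (exact p = 0.0571), so that *Mtm1*-/y replicate 1 was barely above the highest WT library. From counts not divided by exon length that separation was lost (exact p = 0.11), and no other of the 9 ratios changed in this respect. In the heart they came to 105 ± 12.3 and 105 ± 4.57 (exact p = 0.857). In the heart *Sln* alone came to 12.3 ± 16.6 in WT and 2.00 ± 3.96 in *Mtm1*-/y and *Pln* alone came to 92.4 ± 28.8 and 103 ± 4.44, both with overlap. In the gastrocnemius *Sln* alone came to 0.0778 ± 0.0375 and 2.77 ± 1.40. *Pln* alone came to 0.00669 ± 0.000740 and 0.0139 ± 0.00471 there and to 0.0240 ± 0.00652 and 0.0449 ± 0.00593 in the diaphragm, without overlap in either muscle. In CPM, *Pln* itself overlapped between genotypes and did not pass in either skeletal muscle. *Atp2a1*, the main SERCA transcript of both, fell in the gastrocnemius, and its part in the ratio was not tested. The ratios of *Sln* alone and *Pln* alone were not among the 9 tests and are descriptions. After adjustment over the 9 tests the lowest value was 0.103, shared by the 5 ratios without overlap.

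**Figure D4:**
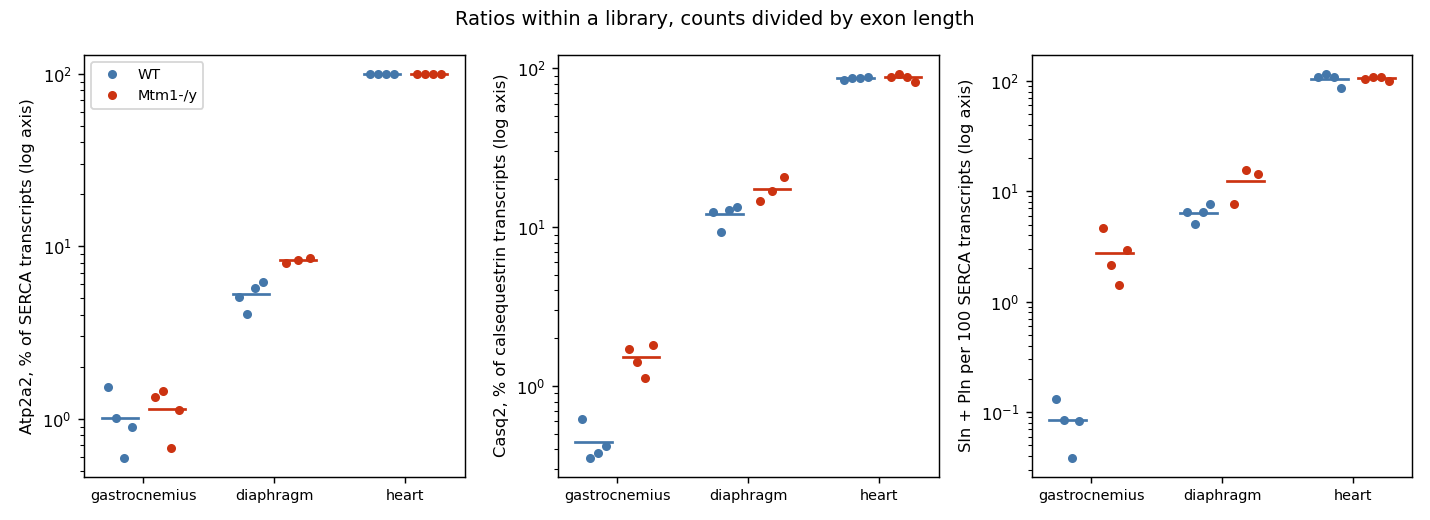
Ratios within each library (points, log axes; lines are group means) of *Atp2a2* to all SERCA, of *Casq2* to all calsequestrin, and of *Sln* plus *Pln* to all SERCA transcripts. The genotypes separate in both skeletal muscles for the second and the third ratio, in the diaphragm for the first, and in no ratio in the heart. The separation of the third ratio in the diaphragm was lost in counts not divided by length.

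Whether the genotype effect itself differed between muscles was examined with edgeR by fitting each pair of tissues together, so that the comparisons share libraries. Whether tissues of the same replicate number came from 1 animal is not given in the labels, and the fits treat all libraries as independent. Heart minus gastrocnemius passed for 3 of the 9 genes, against 19.8% of the 16627 genes tested. The effect in the heart was lower than in the gastrocnemius for *Sln* (-6.82, SE 2.24, adjusted p = 0.043) and *Casq2* (-0.78, SE 0.26, adjusted p = 0.048) and higher for *Hrc* (0.53, SE 0.14, adjusted p = 0.016). *Hrc* passed whichever library was left out. *Casq2* kept its call in 3 of 16 omissions, those of WT gastrocnemius 1, *Mtm1*-/y gastrocnemius 3 and WT heart 4, with adjusted p from 0.018 to 0.099 over 20 alternatives. *Sln* kept its call in 3 of 16, those of *Mtm1*-/y gastrocnemius 3, WT heart 2 and *Mtm1*-/y heart 2. *Sln* was -5.30 (adjusted p = 0.095) without WT heart 4 and -13.05 (0.00056) without *Mtm1*-/y heart 2, within a range of 0.00056 to 0.095 over 20 alternatives. Diaphragm minus gastrocnemius passed for *Sln* only among the 9 (-3.79, SE 0.63, adjusted p = 0.032), against 0.280% of the 17509 genes tested. That call held in 4 of 15 omissions, those of WT gastrocnemius 3, *Mtm1*-/y gastrocnemius 3, WT diaphragm 3 and *Mtm1*-/y diaphragm 2, with adjusted p from 2.5e-07 to 0.14 over 19 alternatives. Heart minus diaphragm passed for none of the 9 in edgeR (0.00573% of all genes) or DESeq2, and 1, *Atp2a3*, had an unadjusted p under 0.05, beside 10.6% of all genes.

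Genes with the pattern most like each of the 9 were sought by Pearson's r of log2 CPM over the 23 muscle libraries among 14211 genes, as a description in which tissue sets most of the spread. *Atp2a1* was closest to the fast troponins *Tnni2* and *Tnnt3* (r = 0.999 and 0.998), *Pvalb* to *Asb16* and *Myh4* (0.997 and 0.996), *Casq1* to *Mybpc2* and *Map2k3* (0.992 and 0.988), and *Pln* to *Tnni3* and *Pip5k1b* (0.996 and 0.995). *Atp2a2* was closest to *Rasl10b* and *Gm39214* (0.982 and 0.981), *Casq2* to *Serpinb9* and *Vipas39* (0.970 and 0.969) and *Hrc* to *Fyco1* and *Polr1a* (0.959 and 0.956). *Sln* (0.851 with *Olfm1*, 0.849 with *Adam33*) and *Atp2a3* (0.687 with *Mad1l1*, 0.669 with *Inpp5b*) had no gene as close.

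Promoters of 7 of the 9 genes (not *Sln* or *Atp2a2*) were matched by symbol in RefSeq sequences (GRCm38.p6), taking 250 bases before each start. The 10-base consensus site of the MEF2 muscle factors, searched on both strands, occurred in those of *Casq2* and *Pvalb* (1 of its 2 start sites) and in 2.92% of all 32851 promoters. The E-box (CANNTG) occurred in those of *Atp2a1*, *Pln*, *Casq1*, *Casq2*, *Pvalb* (its other start site) and *Hrc* and in 66.2% of all, and the CArG box in none of the 7 genes and in 1.47% of all. The *Casq2* and *Pvalb* promoters are shown with the MEF2 match in capitals because the genes moved in opposite directions in the gastrocnemius. They lie at chr3:102086165-102086414 (plus strand) and chr15:78206401-78206650 (minus strand).
*Casq2*: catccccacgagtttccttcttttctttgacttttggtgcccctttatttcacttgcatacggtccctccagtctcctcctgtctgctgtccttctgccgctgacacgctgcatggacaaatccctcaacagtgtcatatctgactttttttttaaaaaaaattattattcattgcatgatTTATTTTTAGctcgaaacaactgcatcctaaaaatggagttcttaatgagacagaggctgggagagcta
*Pvalb*: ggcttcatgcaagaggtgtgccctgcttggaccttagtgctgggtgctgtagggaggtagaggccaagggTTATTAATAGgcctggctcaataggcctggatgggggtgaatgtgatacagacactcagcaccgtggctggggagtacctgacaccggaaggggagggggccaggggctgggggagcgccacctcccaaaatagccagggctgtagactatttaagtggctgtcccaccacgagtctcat
A match is a description of these letters and not a shown binding site.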

How the data were processed

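Poly(A) RNA of 30 libraries was sequenced as single reads after TruSeq Stranded mRNA preparation. The authors trimmed reads with cutadapt 1.10, used STAR 2.5.3a for alignment to mm10, and took unique alignments into gene counts with HTSeq 0.6.1p1 and Ensembl genes. The deposited values are raw counts per gene. Reads shared by overlapping genes on a strand were not assigned in this mode. This may touch *Atp2a2* and *Casq2*, whose annotated spans overlap other genes on their strand. The strand setting is not given in the sources used here. For *Atp2a1*, *Atp2a2*, *Pln* and *Casq1*, reads shared with genes lying opposite may thus be left unassigned or be included.

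Counts were tested with edgeR 4.0.16 in R 4.3.3 (filterByExpr at a minimum of 10, TMM, quasi-likelihood test, p-values adjusted by Benjamini-Hochberg across the genes tested, threshold 0.05), per tissue, over 2 tissues for differences of effect, and over WT muscles. DESeq2 1.42.0, its size factors, no filter, an absolute log2 fold change over 1, the replicate number as a block, 1 fit of all libraries and leaving out each library were alternatives. The fits were tested on simulated counts. Exact permutation tests used Python 3.11.15, with SciPy 1.17.1 as a check. No 2 libraries of a group agreed within sampling noise.

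The 9 genes and the lists were chosen with earlier results of these data known. All 9 are named, and from each list up to 3 genes that passed in the gastrocnemius, taken by lowest p, or for markers the 2 most abundant over the muscles. Groups are those of the labels. Omission of WT heart 4 and *Mtm1*-/y heart 2, of liver-enriched genes and of *Mtm1*-/y diaphragm 2 was chosen after seeing the data. The 2 hearts had the highest atrial marker sums of their groups. Not every gene that moved is reported here by name.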

Additional observations from a re-analysis of the deposited data

Results flagged for a closer look

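A library far from the others of its group, by Dixon's test at the 95% level, was found in 9 of 69 groups of values, where chance flags about 1 in 20 groups. In the heart these were *Atp2a1* in WT replicate 4 (14.4 CPM) and in *Mtm1*-/y replicate 2 (4.75 CPM), *Sln* in *Mtm1*-/y replicate 2 (311 CPM), *Atp2a2* in WT replicate 3 (18227 CPM), *Pln* in *Mtm1*-/y replicate 1 (8768 CPM) and the *Atp2a2* share of SERCA transcripts in WT replicate 4 (99.7%). WT heart 4 and *Mtm1*-/y heart 2 were also the libraries with the highest atrial marker sums of their groups. The others were *Atp2a3* in WT gastrocnemius 1 (20.3 CPM), *Casq2* in WT diaphragm 3 (399 CPM) and *Sln* in *Mtm1*-/y liver 2 (0.795 CPM, from 22 counts).

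The contrast of genotype effects between tissues passed in edgeR for *Sln* (heart minus gastrocnemius -6.82, diaphragm minus gastrocnemius -3.79), *Casq2* (heart minus gastrocnemius -0.78) and *Hrc* (heart minus gastrocnemius 0.53). With 1 library left out, *Sln* lost these calls in 13 of 16 and 11 of 15 omissions, and *Casq2* in 13 of 16. *Hrc* kept its call in each.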

How the results depend on the processing

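The counts of the 9 genes that passed in the diaphragm and the liver, and between WT muscles, stayed within 1.5 times under the alternatives run. In the gastrocnemius 6 genes passed, but 1 (*Sln*) in 1 fit of all libraries, where 2925 of 18498 genes did. With an absolute log2 fold change over 1 it was 1, where 1024 of 15456 genes did. In the heart none passed, but 1 (*Sln*) in DESeq2 without WT heart 4 and *Mtm1*-/y heart 2. Without them *Sln* and *Pln* per 100 SERCA transcripts differed by -6.34, a change of sign from 0.57 with all hearts. The hearts kept still differed in atrial marker sums, 853 to 4621 CPM in WT against 241 to 721 CPM in *Mtm1*-/y. For heart minus gastrocnemius 3 passed, 1 with the fold threshold and 1 to 3 with a library left out. There *Casq2* lost its call in 13 of 16 omissions and *Sln* in 13 of 16. For diaphragm minus gastrocnemius 1 passed and 0 to 1 with a library left out, *Sln* being lost in 11 of 15. Over all genes the number passing moved more. In the diaphragm it was 2 in edgeR, 162 without *Mtm1*-/y replicate 2, 0 to 3 without any other library and 274 in 1 fit of all libraries. In DESeq2 it was 440, and 1661 without that library. In the heart it was 1 in edgeR, 19 without WT heart 1, 12 without WT heart 2, and 1 or 2 without any other. In DESeq2 it was 86 there, or 422 without WT heart 4 and *Mtm1*-/y heart 2.

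The labels do not say what a replicate number marks. Libraries of different genotype cannot come from 1 animal. The block within a tissue and the paired differences below thus rest on an assumed pairing. Deviations of same-numbered libraries correlated between -0.555 and 0.335 over 14 genotype pairs, 5 of them over 0.1, and a library correlated best with its own number in 5 of these pairs. Over 22 pairs of tissues within a genotype they correlated between -0.174 and 0.276, 11 of them over 0.1, with 13 best with their own number. This was more frequent among WT than among *Mtm1*-/y pairs, and the number that chance would give was not computed. With the replicate block *Atp2a2* also passed in the gastrocnemius (-0.54, adjusted p = 0.015 by edgeR, range over 13 alternatives 0.015 to 0.44), 1 gene (*Sln*) passed for heart minus gastrocnemius (adjusted p = 0.052 for *Hrc* and 0.066 for *Casq2*) and 0 for diaphragm minus gastrocnemius. The paired difference was 1.07 percentage points for the *Casq2* share and 2.70 per 100 for *Sln* and *Pln* in the gastrocnemius (exact sign permutation p = 0.12 for both, the smallest that 4 pairs allow).

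Some values changed sign, not all of them near 0. In the diaphragm *Casq1* was 0.013 with DESeq2's size factors, 0.016 without a filter, 0.090 with the block, 0.013 in DESeq2 and 0.19 in DESeq2 without *Mtm1*-/y replicate 2, and *Hrc* was 0.0016 without a filter, 0.096 with the block and 0.16 in that DESeq2 fit. In the heart *Casq1* was -0.0015 with the block. With a library left out, the log2 fold change ran from -0.29 to 0.16 (*Casq1*) and -0.30 to 0.15 (*Hrc*) in the diaphragm, and from -0.21 to 0.31 (*Casq1*) and -1.50 to 0.10 (*Atp2a1*, positive without WT heart 4) in the heart. The *Atp2a2* share difference in the gastrocnemius ran from -0.0041 to 0.308 and the *Casq2* share difference from 0.973 to 1.20 there and -0.595 to 2.72 in the heart. That of *Sln* and *Pln* ran from 2.07 to 3.16 in the gastrocnemius and -5.27 to 4.36 in the heart. *Casq2* in the diaphragm was 0.18 without *Mtm1*-/y replicate 4 and 0.64 to 0.92 without any other library. Counts not divided by length gave a difference of 2.13 per 100 for *Sln* and *Pln* in the diaphragm (exact p = 0.11). The cause was not tested, except that 3 against 4 libraries cannot reach an exact p below 0.0571.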
